A study of Homo sapiens with 6 samples.

Results

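The MHC class I presentation genes examined here were HLA-B, HLA-C, HLA-E, HLA-F, B2M, TAP1, TAP2, TAPBP and NLRC5. They were taken by name from a table of 35410 genes, each name matched 1 row, and all 9 were among the 15465 genes that passed the filter on low counts. RNA was measured by MACE-Seq, a sequencing of the 3′ ends of polyadenylated transcripts, in 3 biological replicates each of SEM::mock and SEM::EGR3. SEM is an established human cell line of B cell precursor leukemia at the proB stage, and carries KMT2A::AFF1. SEM::mock carries the empty vector and SEM::EGR3 a doxycycline-inducible EGR3 transgene, and both lines received 1 µg/mL doxycycline for 48 h before RNA extraction. Whether each line was 1 clone or a pool was not given in the sources used here, and there were no uninduced libraries, so that a difference present before induction and a difference that followed EGR3 cannot be told apart.

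Class I molecules carry peptides from inside the cell to its surface, where cytotoxic T cells and natural killer cells inspect them. A polymorphic heavy chain pairs with the light chain β2-microglobulin (B2M) in the endoplasmic reticulum, TAP1 and TAP2 pump peptides into this compartment, and tapasin (TAPBP) holds the empty molecule next to the transporter until a peptide has bound. Transcription of these genes is driven by NLRC5 together with factors at the conserved X and Y boxes of their promoters, by interferon regulatory factors and by NF-κB, and leukemic cells can lower it to escape immune recognition.

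EGR3 itself had counts of 8, 10 and 6 in SEM::mock, compared with 9768, 4952 and 5557 in SEM::EGR3. Total counts ranged from 5286115 to 6181388 in the SEM::mock libraries and from 7293092 to 15106018 in those of SEM::EGR3. The 3 SEM::mock libraries went against their label as a proB line. EBF1, a factor that specifies B cells, was at 0 in each, and PAX5, which commits cells to the B lineage, had 1, 1 and 2, while SEM::EGR3 held 925 to 2058 counts for EBF1 and 1443 to 3410 for PAX5. Of 12 B-lineage markers 9 were tested, 8 were higher and 1 (CD24) was lower in SEM::EGR3. Markers near 0 counts in SEM::mock, EBF1 and PAX5 among them, could pass the filter only through SEM::EGR3 and could not be called lower. The summed level of the 12 was 134 to 158 CPM (counts scaled to 1000000 per library) in SEM::mock and 519 to 546 in SEM::EGR3. CD24 made up nearly all of the sum in SEM::mock, with 131, 153 and 145 CPM. It had 23.8, 22.8 and 23.7 CPM in SEM::EGR3. HOXA7, HOXA9 and PROM1, known targets of KMT2A fusions and named after their values were seen, had at most 3 counts in any SEM::mock library and at least 360 in every SEM::EGR3 library. Other targets of that list were present in SEM::mock, HOXA10 with 77, 74 and 75 counts, MEIS1 with 53, 48 and 38, and HOXA5 with 4, 5 and 6. All 6 listed targets were higher in SEM::EGR3, and HOXA7, HOXA9 and PROM1 could pass the filter only through that line. Erythroid genes were present in both lines. The erythroid factor KLF1 (796 to 955 counts) was abundant in SEM::mock, and the summed level of 5 erythroid markers was 973 to 1029 CPM in SEM::mock and 1632 to 1692 in SEM::EGR3, with HBB at 2, 0 and 0 counts in SEM::mock, compared with 0 in SEM::EGR3. Of 4 tested erythroid markers, 1 (HBA1, mean 513 CPM in SEM::mock and 1491 in SEM::EGR3) was higher and 3 were lower. Among the tested markers of other cell types, 2 T cell markers were higher and 2 lower, 1 myeloid marker was higher and 2 lower, 0 NK cell markers were higher and 2 lower, and 2 epithelial or fibroblast markers were higher and 3 lower. The T cell markers summed to 60.2 to 66.2 CPM in SEM::mock (CD5 at 0) and 79.5 to 88.1 CPM in SEM::EGR3. This sum holds opposite changes, since mean CD3D fell from 57.9 to 6.24 CPM and mean TRAC rose from 1.20 to 74.4 CPM. The myeloid markers summed to 279 to 288 CPM in SEM::mock (MPO and CSF1R at 0) and 104 to 107 CPM in SEM::EGR3. The NK cell markers summed to 37.3 to 43.2 and 22.4 to 26.9 CPM, and the epithelial and fibroblast markers to 747 to 779 and 451 to 475 CPM, in the same order. Every difference between the lines below moved together with these differences in lineage markers, and their part in the results was not tested. In bulk RNA, fewer cells of a type and less RNA per cell cannot be told apart.

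The promoters of 4 members are shown because they bring together 2 heavy chain genes that were higher in SEM::EGR3 and 2 assembly genes that were lower. Each line gives RefSeq sequence on GRCh38.p14 in the direction of transcription, from 250 bases before to 50 bases after an annotated start. Capitals mark the letters that matched a searched motif on either strand.
HLA-B: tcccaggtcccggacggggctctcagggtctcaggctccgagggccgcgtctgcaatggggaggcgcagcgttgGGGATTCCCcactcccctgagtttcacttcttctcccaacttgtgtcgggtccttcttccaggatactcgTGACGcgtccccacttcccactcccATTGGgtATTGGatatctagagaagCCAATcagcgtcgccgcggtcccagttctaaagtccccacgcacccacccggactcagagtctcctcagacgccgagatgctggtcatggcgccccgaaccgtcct
HLA-F: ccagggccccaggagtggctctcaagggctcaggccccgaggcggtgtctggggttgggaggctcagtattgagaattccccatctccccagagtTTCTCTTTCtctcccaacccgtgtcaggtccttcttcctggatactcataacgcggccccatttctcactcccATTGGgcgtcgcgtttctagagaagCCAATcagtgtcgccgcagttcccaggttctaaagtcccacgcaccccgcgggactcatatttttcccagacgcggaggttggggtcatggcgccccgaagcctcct
B2M: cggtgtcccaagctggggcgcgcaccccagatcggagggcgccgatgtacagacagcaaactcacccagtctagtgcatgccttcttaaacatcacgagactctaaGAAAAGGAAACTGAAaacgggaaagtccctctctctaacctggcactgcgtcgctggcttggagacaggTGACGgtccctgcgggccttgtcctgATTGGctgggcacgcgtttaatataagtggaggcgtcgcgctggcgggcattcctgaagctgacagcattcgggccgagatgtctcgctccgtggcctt
TAP1: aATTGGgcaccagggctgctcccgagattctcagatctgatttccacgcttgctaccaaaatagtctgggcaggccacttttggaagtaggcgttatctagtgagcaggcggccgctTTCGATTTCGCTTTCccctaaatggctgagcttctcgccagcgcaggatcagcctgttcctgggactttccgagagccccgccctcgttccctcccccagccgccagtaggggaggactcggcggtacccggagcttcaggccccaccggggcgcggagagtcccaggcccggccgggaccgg
These windows are chr6:31357130-31357429 (minus strand), chr6:29723184-29723483 (plus), chr15:44711267-44711566 (plus) and chr6:32853655-32853954 (minus). They are reference sequence, and the alleles that the cells carry may differ.

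RefSeq promoters were found for 7 of the 9 genes. HLA-E and NLRC5 had no entry, and TAP1 had a second one. CCAAT, the letters of the Y box to which NF-Y binds, was present for 5 of the 7 genes (HLA-B, HLA-C, HLA-F, B2M and TAP1) and in 34.6% of 35116 promoters of the same length. TGACG, which occurs in the X2 box and in other cAMP response elements, was present for 4 genes (HLA-B, HLA-C, B2M and TAP2) and in 24.6% of all promoters. The interferon-response core GAAANNGAA was present for 5 genes (HLA-F, B2M, TAP1, TAP2 and TAPBP) and in 8.11% of all promoters, and it overlapped itself in B2M, TAP1 and TAPBP. The NF-κB letters GGGANTCCC occurred 176 bases before the start of HLA-B alone among the 7 genes and in 0.877% of all promoters. TTCNNNGAA, the core of interferon-γ activated sites, occurred in the second TAP1 promoter and in 7.66% of all. The EGR motifs GCGTGGGCG and GCGGGGGCG, held by 0.795% and 5.07% of all promoters, were found in 0 of the members' windows. CCAAT and GAAANNGAA, as well as TGACG, thus occurred in promoters of genes that were higher and of genes that were lower in SEM::EGR3. A match describes letters and not binding, and a window without a match says nothing about the factor.

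Of the 9 genes, 5 were higher in SEM::EGR3 (the 4 heavy chain genes and NLRC5), 3 were lower (B2M, TAP1 and TAPBP) and TAP2 did not pass the test. The threshold was an adjusted p of 0.05 in the quasi-likelihood test of edgeR. By the same rule 68.5% of all tested genes were called, 36.5% as higher and 32% as lower, so that a call alone set a gene little apart from the rest of the transcriptome. The libraries of both lines did not overlap for 8 of the 9 genes, as for 70.1% of all tested genes. HLA-F and NLRC5, near 0 counts in SEM::mock, could pass the filter only through SEM::EGR3 and could not be called lower. The median log2 fold change of the 9 genes was 0.66, beside 0.03 over all tested genes. With a log2 fold change of at least 1 required as well, HLA-B, HLA-C, HLA-F and NLRC5 remained as higher, a call made for 16.7% of all tested genes, and 0 members remained as lower, a call made for 8.5%.

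**Figure D1:**
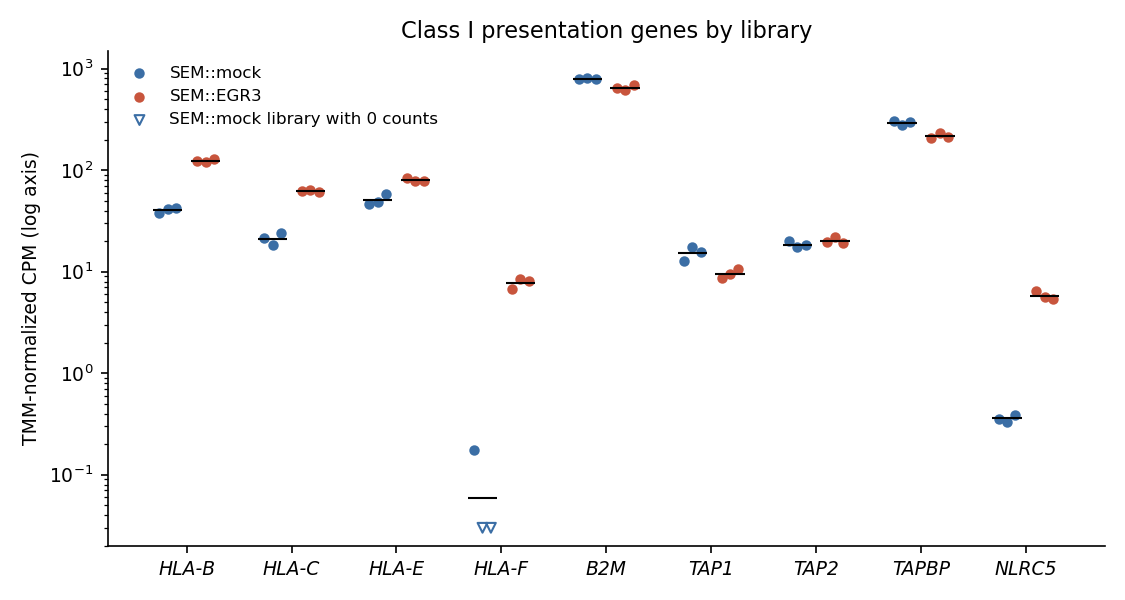
Levels of the 9 genes in each library (TMM-normalized CPM, log axis). Points are libraries, lines are the means of 3 libraries, and open triangles stand for libraries with 0 counts, which a log axis cannot place. The heavy chain genes and NLRC5 lie higher in SEM::EGR3, B2M, TAP1 and TAPBP lie lower, and the points of TAP2 overlap.

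HLA-B and HLA-C encode classical heavy chains, which present peptides to CD8+ T cells and bind killer cell immunoglobulin-like receptors. HLA-B (ENSG00000234745, chr6:31269491-31357188, minus strand) gave counts of 216, 249 and 218 in SEM::mock, compared with 1930, 888 and 1174 in SEM::EGR3. Scaled to library size, these are means of 40.7 ± 2.39 CPM and 124 ± 5.05 CPM (SD, n = 3 libraries per line, as for all means here). The lowest SEM::EGR3 library (119 CPM) lay far above the highest SEM::mock library (42.6 CPM), and the log2 fold change was 1.61 ± 0.07 (SE; edgeR adjusted p = 2.44e-16). HLA-C (ENSG00000204525, chr6:31268749-31272130, minus strand) gave counts of 121, 110 and 122 in SEM::mock, compared with 962, 473 and 552 in SEM::EGR3. Its level rose from 21.2 ± 2.74 to 62.0 ± 1.36 CPM, a log2 fold change of 1.56 ± 0.09 (edgeR adjusted p = 5.67e-14), again without overlap. The gene model of HLA-B in GENCODE release 29 extends over HLA-C on the same strand, but the last 300 bases of the principal transcripts of both genes lie under exons of no other gene. Class I genes are also near-identical over long stretches, so that reads may have been assigned to the wrong gene of the family, and the separate values of HLA-B and HLA-C carry that uncertainty.

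HLA-E and HLA-F encode nonclassical heavy chains. HLA-E displays leader peptides of other class I chains to the NKG2A receptor of natural killer cells, and HLA-F can reach the surface without peptide. HLA-E (ENSG00000204592, chr6:30489467-30494205, plus strand) gave counts of 266, 288 and 296 in SEM::mock, compared with 1307, 580 and 712 in SEM::EGR3. It rose from 50.9 ± 6.03 to 80.0 ± 3.40 CPM without overlap, and its log2 fold change of 0.66 ± 0.08 (edgeR adjusted p = 3.04e-08) was the smallest among the 4 heavy chain genes.

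HLA-F (ENSG00000204642, chr6:29722775-29738528, plus strand) was all but missing from SEM::mock, with 1, 0 and 0 counts, and had 106, 63 and 74 counts in SEM::EGR3. These are 6.81, 8.45 and 8.15 CPM, so that the 3 SEM::EGR3 libraries lay close together. The pooled counts gave a ratio of 127 with a 95% counting interval of 22.6 to 5042 (exact binomial, counting error only), and the edgeR adjusted p was 1.36e-11. The fitted log2 fold change of 6.68 ± 0.50 rests on the single count in SEM::mock replicate 1 and was 9.04 without that library. The last 300 bases of HLA-F also lie under an exon of the antisense gene HLA-F-AS1, which gave counts of 0 in SEM::mock, compared with 6, 3 and 4 in SEM::EGR3, and whether strand was used in counting was not given.

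B2M (ENSG00000166710, chr15:44711487-44718877, plus strand), the light chain shared by all class I molecules, was the most abundant of the 9 transcripts in both lines and was lower in SEM::EGR3. It gave counts of 4511, 4815 and 4055 in SEM::mock, compared with 10093, 4630 and 6230 in SEM::EGR3. The SEM::mock libraries were almost equal after scaling (796 ± 6.03 CPM) and the SEM::EGR3 libraries lay at 652 ± 32.4 CPM, with 0 overlap between the lines. The log2 fold change was -0.29 ± 0.05 (edgeR adjusted p = 1.84e-05), the smallest change among the 8 that passed.

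TAP1 and TAP2 form the transporter that carries peptides into the endoplasmic reticulum. TAP1 (ENSG00000168394, chr6:32845209-32853978, minus strand) gave counts of 73, 105 and 80 in SEM::mock, compared with 135, 70 and 97 in SEM::EGR3. Its level fell from 15.3 ± 2.35 to 9.58 ± 1.02 CPM, a log2 fold change of -0.70 ± 0.14 (edgeR adjusted p = 0.000120), and the highest SEM::EGR3 library (10.7 CPM) lay below the lowest SEM::mock library (12.8 CPM). The last 300 bases of TAP1 lie under an exon of PSMB8-AS1 on the opposite strand, which gave counts of 19, 17 and 13 in SEM::mock, compared with 148, 101 and 109 in SEM::EGR3. Reads of both genes cannot be told apart there without strand.

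TAP2 (ENSG00000204267, chr6:32821833-32838780, minus strand) did not follow TAP1. It gave counts of 113, 104 and 93 in SEM::mock, compared with 305, 163 and 174 in SEM::EGR3, which are 18.5 ± 1.30 and 20.2 ± 1.46 CPM with overlapping libraries. The log2 fold change of 0.12 ± 0.11 (edgeR adjusted p = 0.331) had a 95% interval of -0.09 to 0.33, which holds 0 as well as small increases.

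TAPBP (ENSG00000231925, chr6:33299694-33314387, minus strand), the tapasin gene, was the second most abundant transcript of the group. It gave counts of 1732, 1661 and 1543 in SEM::mock, compared with 3250, 1726 and 1929 in SEM::EGR3. Its level fell from 294 ± 15.1 to 218 ± 12.3 CPM without overlap (log2 fold change -0.44 ± 0.06, edgeR adjusted p = 2.61e-07).

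NLRC5 (ENSG00000140853, chr16:56989485-57083531, plus strand) encodes the transactivator that binds class I promoters through the RFX and NF-Y factors. It was close to the limit of detection in SEM::mock, with 2 counts in each library, and had 100, 42 and 49 counts in SEM::EGR3, or 0.359 ± 0.0291 against 5.82 ± 0.539 CPM. The pooled counts gave a ratio of 16.7 (95% counting interval 7.51 to 45.9), and the fitted log2 fold change was 3.99 ± 0.36 (edgeR adjusted p = 3.99e-10). Among all tested genes, ordered from the largest increase to the largest decrease, HLA-F stood at place 393, NLRC5 at 754, HLA-B at 1705 and HLA-C at 1763.

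In SEM::mock the 3′ end levels fell in the order B2M, TAPBP, HLA-E, HLA-B, HLA-C, TAP2, TAP1, NLRC5 and HLA-F. HLA-C and TAP2 overlapped between libraries, as did TAP2 and TAP1, and the other neighbours did not. In SEM::EGR3 the order was B2M, TAPBP, HLA-B, HLA-E, HLA-C, TAP2, TAP1, HLA-F and NLRC5, and 0 neighbours overlapped. HLA-B thus changed places with HLA-E. MACE-Seq counts 1 end per transcript, so these levels need no length correction, although priming can differ between genes.

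Since reads may be exchanged among class I loci, the counts of the 11 heavy chain genes and pseudogenes in the table were also summed. The sums were 734, 817 and 768 counts in the SEM::mock libraries, compared with 5578, 2585 and 3213 in SEM::EGR3, or 138 ± 10.6 and 353 ± 5.80 CPM. The groups did not overlap, and the difference was 1.35 on the log2 scale (two-sided exact permutation p = 0.1, the lowest value that a 3 against 3 design can reach). The 4 member genes alone gave 113 and 274 CPM and a difference of 1.28. HLA-E made up 35.3% to 38.5% of the summed counts in the SEM::mock libraries, compared with 22.2% to 23.4% in SEM::EGR3, and HLA-B made up 28.4% to 30.5% and 34.4% to 36.5%. None of the 5 pseudogenes in the table passed the filter, and the highest of them in SEM::EGR3, HLA-J, gave counts of 3, 2 and 2 in SEM::mock, compared with 26, 8 and 10 in SEM::EGR3.

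Ratios of counts within a library do not depend on library size. HLA-B exceeded HLA-C by similar factors, 1.79, 2.26 and 1.79 in SEM::mock and 2.01, 1.88 and 2.13 in SEM::EGR3 (log2 difference 0.05, exact permutation p = 0.8). HLA-E to HLA-B fell from 1.23, 1.16 and 1.36 to 0.677, 0.653 and 0.606, a log2 difference of -0.95 without overlap. B2M to the summed heavy chains fell from 6.15, 5.89 and 5.28 to 1.81, 1.79 and 1.94 (log2 difference -1.64). TAP1 to TAP2 was 0.646, 1.01 and 0.860 in SEM::mock and 0.443, 0.429 and 0.557 in SEM::EGR3 (log2 difference -0.80). TAP1 to PSMB9, its neighbour on the opposite strand, was 0.973, 1.64 and 1.27 in SEM::mock and 0.299, 0.402 and 0.390 in SEM::EGR3 (-1.81). HLA-F to HLA-B was 0.00463, 0 and 0 in SEM::mock and 0.0549, 0.0709 and 0.0630 in SEM::EGR3. Its log2 difference of 4.31 rests on the pseudocount of 0.5 in the SEM::mock libraries with 0 HLA-F counts. With this ratio there were 6. The 5 other than HLA-B to HLA-C did not overlap between the lines and had an exact permutation p of 0.1, the smallest possible, and 0.12 after adjustment over the 6, so that none passed a threshold of 0.05.

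**Figure D2:**
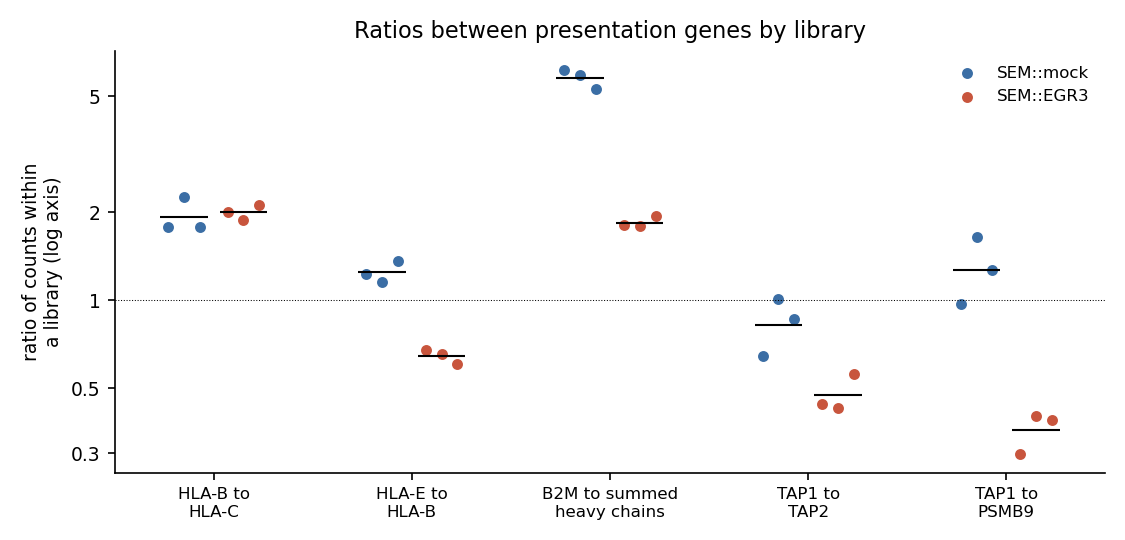
Ratios of counts within each library (log axis) for 5 pairs of presentation genes. Points are libraries and lines are geometric means of 3 libraries. HLA-B to HLA-C overlaps between the lines, and the other 4 ratios lie lower in each SEM::EGR3 library than in any SEM::mock library.

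Genes that act with class I molecules in the endoplasmic reticulum changed in both directions. Of 13 genes for peptide loading, trimming and protein entry, 5 were higher, 4 lower and 4 did not pass, with a median log2 fold change of 0.12. The trimming peptidase ERAP2 gave counts of 43, 32 and 34 in SEM::mock, compared with 525, 235 and 297 in SEM::EGR3 (log2 fold change 2.33 ± 0.13), while its partner ERAP1 was lower (-0.27 ± 0.08). PDIA3, the disulfide isomerase bound to tapasin in the loading complex, was at 95.7 ± 7.20 CPM in SEM::mock and rose to 182 CPM (0.92 ± 0.06), and the chaperones HSPA5 (0.60 ± 0.05) and calreticulin, CALR (0.52 ± 0.05), were higher too. The largest decreases of the list were those of GANAB (-0.58 ± 0.06), a glucosidase subunit that trims glycans of new proteins, and SEC61G (-0.52 ± 0.05), a subunit of the translocon. The tapasin-related gene TAPBPL, with 5.74 ± 1.18 and 6.88 ± 0.153 CPM, did not pass.

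The immunoproteasome cuts many of the peptides that TAP transports. Of 4 tested genes, 3 were higher, 0 were lower and PSME2 (log2 fold change 0.10 ± 0.07) did not pass. PSMB9 rose from 75, 64 and 63 counts to 452, 174 and 249 (1.16 ± 0.12), PSME1 rose by 0.57 ± 0.06 and PSMB8 by 0.25 ± 0.07 on the log2 scale. PSMB10, with 0 counts in SEM::mock, compared with 4, 0 and 0 in SEM::EGR3, was not tested. PSMB9 shares a stretch of chromosome 6 with TAP1 and moved in the opposite direction.

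Of 24 factors that act at class I promoters, 13 were higher, 3 lower and 8 did not pass (median log2 fold change 0.26). IRF8, an interferon regulatory factor of lymphoid and myeloid cells, was at 0 in every SEM::mock library and had 165, 82 and 116 counts in SEM::EGR3. It passed the filter only through SEM::EGR3. With a floor of 3 counts per SEM::mock library it was at least 21.3-fold higher. IRF7 (1.50 ± 0.15), IRF9 (1.17 ± 0.30) and IRF2 (1.07 ± 0.12) were higher as well, while IRF1 (0.12 ± 0.09) did not pass. Of the factors of the X and Y boxes, NFYA (0.68 ± 0.08), RFX5 (0.59 ± 0.09), NFYB (0.48 ± 0.09), CREB1 (0.28 ± 0.08) and RFXANK (0.27 ± 0.06) were higher, and RFXAP, ATF1 and NFYC did not pass. The 3 lower genes were the NF-κB subunits RELB (-0.32 ± 0.14), NFKB1 (-0.28 ± 0.09) and RELA (-0.25 ± 0.06), with REL and NFKB2 not past the threshold.

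Of 11 tested genes listed as lowering class I expression, 4 were higher, 2 lower and 5 did not pass (median log2 fold change 0.07). MARCHF4 (1.05 ± 0.30), a ubiquitin ligase of membrane proteins, SUSD6 (0.65 ± 0.12) and the ubiquitin ligase WWP2 (0.64 ± 0.08) were higher, as was the histone methyltransferase EZH2 (0.17 ± 0.06). MYC, a factor that can lower class I transcription, fell from 171 ± 8.70 to 98.9 ± 5.02 CPM (-0.79 ± 0.06), and MARCHF9 was lower by a smaller amount (-0.35 ± 0.15). Of 4 tested class I-like genes outside the peptide-presenting group, HFE, a regulator of iron uptake, was higher (1.53 ± 0.36), and FCGRT (-2.30 ± 0.16), the heavy chain of the neonatal Fc receptor, PROCR (-1.66 ± 0.08), the endothelial protein C receptor, and MR1 (-0.21 ± 0.09), which presents vitamin metabolites, were lower, with a median of -0.93. PROCR resembles class I chains without pairing with B2M. None of the 5 receptors of class I molecules in the table passed the filter.

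**Figure D3:**
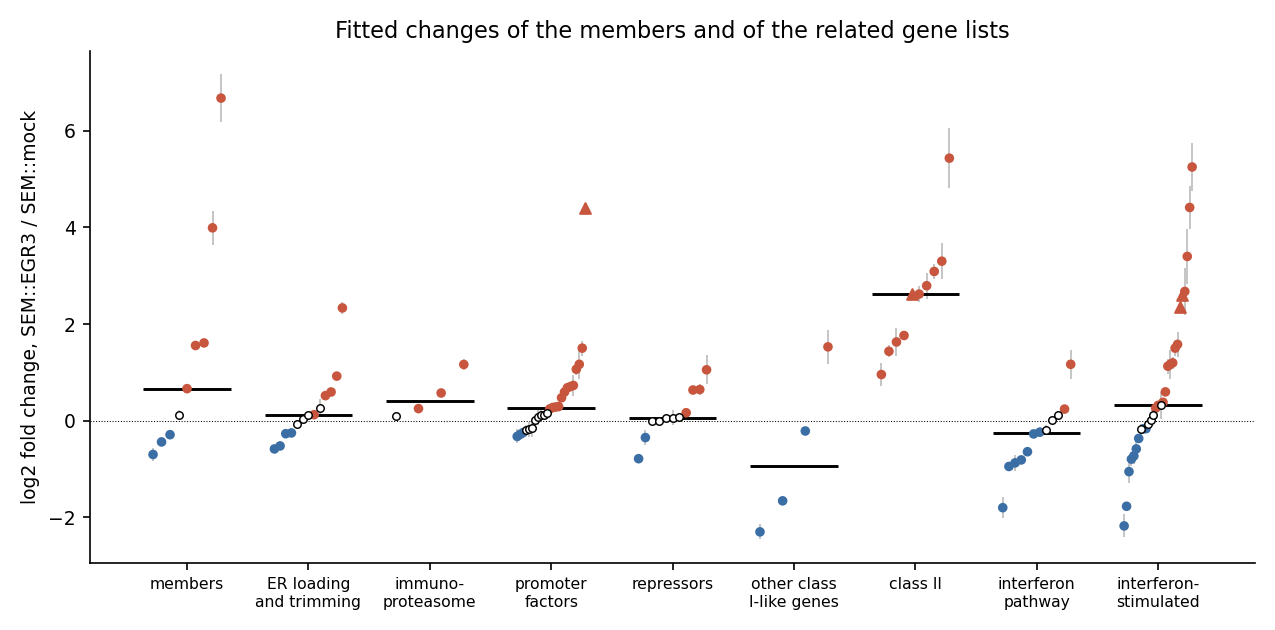
Log2 fold changes (SEM::EGR3 over SEM::mock, with SE) of the 9 members and of the tested genes of 8 related lists. Filled points passed the adjusted threshold of 0.05, open points did not, triangles are lower bounds for genes with 0 counts in every SEM::mock library, and lines are medians. Members and promoter factors spread to both sides of 0, and the 10 tested class II genes lie above it. Genes near 0 counts in SEM::mock, such as HLA-F, NLRC5 and HLA-DQB1, could pass the filter only through SEM::EGR3.

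Class II molecules present peptides of extracellular origin to CD4+ T cells. All 10 tested genes of the class II list were higher in SEM::EGR3, with a median log2 fold change of 2.71 (2.62 with HLA-DQB1 at its bound). Over all tested genes 36.5% were called higher. HLA-DQB1, HLA-DOA and HLA-DMB, near 0 counts in SEM::mock, could pass the filter only through SEM::EGR3 and could not be called lower. HLA-DOB, with 13, 3 and 7 counts against 15, 6 and 8, was not tested. The tally and the median carry this limit. HLA-DQB1 went from 0 counts to 66, 15 and 33, at least 6.12-fold higher. HLA-DOA, with 1, 0 and 0 counts against 56, 22 and 26, gave a pooled ratio of 54.4 (95% counting interval 9.55 to 2169), and HLA-DMB, with 2, 2 and 3 against 63, 30 and 43, a ratio of 10.2 (4.80 to 25.8). CIITA, the class II counterpart of NLRC5, gave counts of 14, 20 and 10 in SEM::mock, compared with 74, 34 and 55 in SEM::EGR3 (log2 fold change 0.96 ± 0.24), so that NLRC5 had the lower level in SEM::mock and both were near 5 CPM in SEM::EGR3 (5.82 and 5.12). Whether class I and class II genes differ was not tested.

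Interferons induce class I genes in most cells. Of 12 tested genes of interferon signalling, 2 were higher, 7 lower and 3 did not pass (median log2 fold change -0.25). SOCS3, an inhibitor of cytokine signalling, fell from 6.85 ± 0.184 to 1.92 ± 0.183 CPM (-1.80 ± 0.22), the interferon-γ receptor chain IFNGR1 fell from 32.6 ± 2.08 to 17.0 ± 0.972 CPM (-0.95 ± 0.10), and IRF9 rose. Of 29 tested interferon-stimulated genes, 15 were higher, 9 lower and 5 did not pass (median 0.32). Over all tested genes 36.5% were called higher and 32% lower. Among the higher genes, IFI44, XAF1, OAS1, IFIT1, MX2 and GBP1 had at most 3 counts in any SEM::mock library. These could pass the filter only through SEM::EGR3 and could not be called lower, so the tally and the median lean towards higher genes. XAF1 (at least 6.04-fold higher) and IFI44 (at least 5.13-fold higher) had 0 counts in SEM::mock, and OAS1, with 0, 1 and 1 counts against 88, 37 and 40, gave a pooled ratio of 43.2 (95% counting interval 11.8 to 359). The genes of this list with the largest decreases, named after their values were seen, were IFITM1 (log2 fold change -2.18 ± 0.24) and IFITM3 (-1.77 ± 0.06), antiviral membrane proteins. IFITM3 was abundant and fell from 526 ± 39.0 to 154 ± 8.25 CPM, and the summed level of the list was 1339 to 1456 CPM in SEM::mock and 1104 to 1124 CPM in SEM::EGR3.

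Of the 9 genes, 7 lie within the MHC region of chromosome 6, and B2M and NLRC5 lie elsewhere. Between the start of HLA-F and the end of TAPBP (29722775 to 33314387, 3.59 Mb), 101 further genes were tested, of which 35 were higher, 34 lower and 32 did not pass, with a median log2 fold change of 0.00. The 86 protein-coding genes among them gave 31 higher and 33 lower. The share of higher genes in this stretch was therefore close to that over all genes. This tally covers the whole stretch, and it does not describe single neighbourhoods. The class II genes tested there were all higher, and HLA-DQB1, HLA-DOA and HLA-DMB among them passed the filter only through SEM::EGR3.

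**Figure D4:**
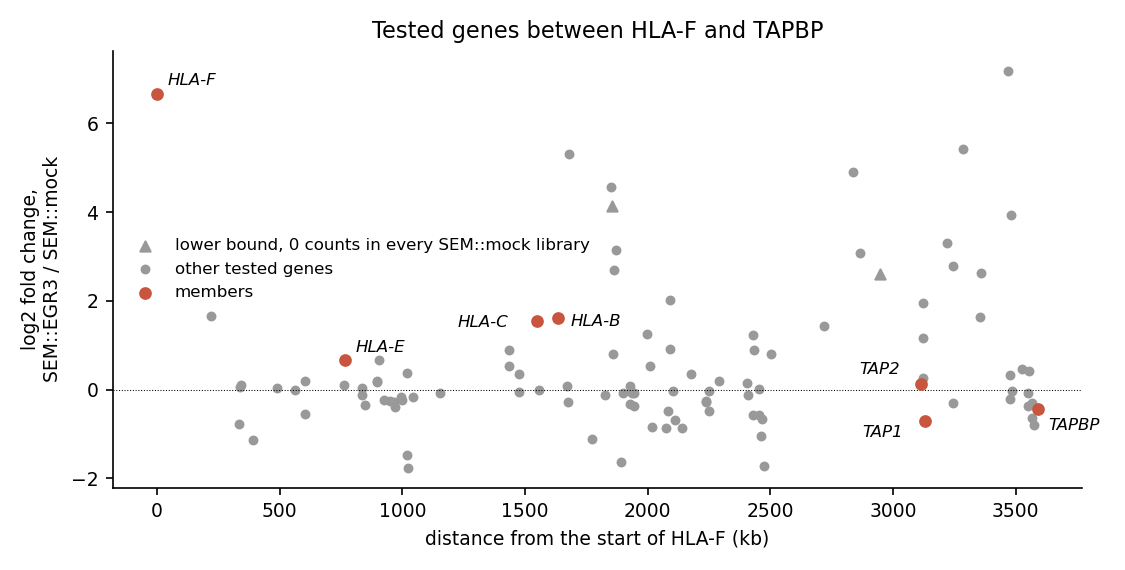
Log2 fold changes (SEM::EGR3 over SEM::mock) of the tested genes between HLA-F and TAPBP, placed by the distance of their start from that of HLA-F (kb). Triangles are lower bounds for genes with 0 counts in every SEM::mock library. HLA-F, HLA-E, HLA-C and HLA-B lie above 0 among neighbours on both sides of it, and TAP1 and TAPBP lie below.

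The genes most like HLA-F over the 6 libraries, measured by the root-mean-square difference of centred log2 CPM among genes with at least 100 mean counts in the higher line, were GAS7 (0.19), GPR174 (0.21) and TNFRSF4 (0.22), with Pearson correlations of 1.00 each. The genes most like the summed heavy chains were AKR1B1 (0.04), CRTC1 (0.04) and SLC25A44 (0.04). With 2 lines the correlation mainly records the step between them, so that it is given as a description. GAS7 and GPR174 had the same SEM::mock level as HLA-F, 0.0587 ± 0.102 CPM, which is a single count in replicate 1. Their likeness to HLA-F therefore leans on values at the floor.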

How the data were processed

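RNA of 3 SEM::mock and 3 SEM::EGR3 replicates was sequenced as MACE-Seq libraries. The submitters' processing notes name bcl2fastq, Bowtie2, HTSeq and GRCh38, without versions. The annotation, the strand setting and the handling of reads with several matches were not given in the sources used here. Raw counts, as deposited by the authors for each gene in whole numbers, were the values used here. The authors also deposited CPM values (named TPM), size-factor normalized signal values, and log2 fold changes and p-values of their own DESeq2 comparison, none of which were used. 0 columns of per-sample counts were left unused.

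Lines were compared with edgeR 4.0.16 under R 4.3.3 (filterByExpr, TMM, glmQLFit, glmQLFTest) over all 6 libraries. P-values were adjusted by Benjamini and Hochberg over 15465 genes. CPM given here are counts per 1000000 of the TMM-adjusted library total. SE was derived from the log2 fold change and its F statistic. In simulated counts of 15222 genes for this comparison, 74 of 87 genes changed by 1 and 86 of 87 changed by 2 on the log2 scale were recovered, with 8 false calls. The simulation gave every gene the same spread between replicates and changed few genes, while 68.5% of tested genes were called in the data. It therefore checks the steps of the fit and does not give the error rate of the calls made here. Sums and ratios were compared by exact permutation tests, with a pseudocount of 0.5 for the log2 ratios. Positions come from GENCODE release 29 (GRCh38), which held 97.0% of the gene identifiers. No 2 libraries of a line agreed within sampling noise (chi-square per degree of freedom 1.71 to 3.12).

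The members and all gene lists were chosen with earlier results of these data known, and the KMT2A targets after their values were seen. The genes named were the members, genes of the fixed class I lists including the 2 largest and 2 smallest log2 fold changes of each, the 3 largest non-overlapping changes of the class II and interferon lists, and the 3 genes most like HLA-F and the summed heavy chains. Alternatives were DESeq2 1.42.0, its size factors in edgeR, no or upper-quartile factors, no filter, a minimum of 10 counts per library, thinning, the replicate block, a log2 fold change of at least 1 and leaving out each library. Some single genes, among them a further heavy chain gene, are not reported here. Replicates were biological per the labels, and counting intervals cover counting error only.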

Additional observations from a re-analysis of the deposited data

How the results depend on the processing

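The direction of each of the 9 genes and its side of the threshold were the same in all 14 alternative fits (13 for HLA-F and NLRC5, which were left without a value by the filter of at least 10 counts in every library). The limit on the log2 fold change is not among these 14. With that filter 3 members were higher, and the median log2 fold change of all members left by it was 0.17. Without TMM factors the median was 0.74. Requiring a log2 fold change of at least 1 left 4 members higher and 0 lower, so that HLA-E, B2M, TAP1 and TAPBP changed sides. It left 2581 genes higher and 1315 lower of all tested. Of the genes of the related lists, class II and interferon lists included, it left 27 higher and 6 lower (51 and 28 without that limit).

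Leaving out 1 library in turn kept 5 members higher and 3 lower, and gave medians of 0.59 to 0.74, 5312 to 5570 genes higher and 4626 to 4940 lower, 48 to 52 list genes higher and 22 to 27 lower, and log2 differences of the summed heavy chains of 1.30 to 1.41. The HLA-B to HLA-C difference ranged from -0.0049 to 0.166. The log2 fold change of HLA-F ranged from 6.15 to 9.04.

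The replicate numbers did not pair the libraries (same-number correlations -0.086, -0.049 and -0.030). With the replicate block 5 members were higher and 3 lower (median 0.66), as were 5388 and 4694 of all genes and 49 and 24 of the list genes, and the summed heavy chains differed by 1.35. Low counts of HLA-F and NLRC5 in SEM::mock limit the size of their folds, and 3 libraries per line hold the exact tests at p = 0.1.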
